A study of Mus musculus with 12 samples.

Results

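The comparison set libraries in which the nuclear RNA Malat1 took a high share of the counts against libraries in which it took a low share. It used 11 of the 12 libraries of the series, 5 with a high and 6 with a low share. The groups were chosen by a measured value: a library was called high where Malat1 held 0.6% or more of its counts and low where it held less. The high libraries were WT replicates 4, 5 and 6 and RGECO replicates 1 and 6, and the low libraries were WT replicates 1, 2 and 3 and RGECO replicates 2, 3 and 5. RGECO replicate 4 was left out because it held 825 counts in 252 genes, with 0 counts for Malat1.

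All libraries came from C2C12, an established mouse myoblast line that fuses into contractile myotubes. WT cells were unmodified, and RGECO cells carried a genetically encoded calcium indicator, a fluorescent protein that reports calcium. The labels name neither the promoter of the indicator nor the number of clones behind the line, and do not say whether replicates were separate cultures. Both lines grew on a methacrylated gelatin hydrogel and were differentiated for 14 days with 10% horse serum, IGF-1 at 50 ng/ml and aminocaproic acid at 1 mg/ml. Nothing in the labels names a treatment that separates high from low libraries, so each p-value below measures association with a split made from these data and is no test of a treatment. If the replicates came from 1 culture, the spread between them is technical.

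The 11 libraries held 5881622 to 11926220 counts. They carried the RNA of differentiated muscle: the skeletal actin gene Acta1 stood at 6527 to 12180 TPM (transcripts per 1000000, a length-corrected level), the creatine kinase gene Ckm at 340.3 to 566.0 TPM and the myogenic factor Myog at 366.6 to 692.0 TPM. Of the markers of other cell types that the libraries could hold, 4 of 10 endothelial and 2 of 12 immune genes had enough counts to be tested. The summed endothelial level was 3.61 to 8.81 TPM and the summed immune level 18.3 to 42.8 TPM. Markers listed for fibro-adipogenic cells and for smooth muscle and pericytes were higher, with 9 of 15 and 9 of 12 tested. They summed to 648 to 1836 TPM and 929 to 1691 TPM.

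Malat1 is a long noncoding RNA that is not exported to the cytoplasm and gathers in nuclear speckles, bodies rich in splicing factors of the SR family. Its neighbour Neat1 is the scaffold of the paraspeckle, a separate nuclear body. In muscle cells Malat1 has been studied for its level during myogenic differentiation.

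Malat1 (ENSMUSG00000092341, chromosome 19 from 5795690 to 5802672 in GRCm38, annotated as a lincRNA) held 0.430%, 0.156% and 0.566% of the counts in WT replicates 1 to 3, against 0.784%, 0.641% and 0.898% in WT replicates 4 to 6. In RGECO it held 0.633% and 0.645% in the high replicates 1 and 6, against 0.252%, 0.180% and 0.274% in the low replicates 2, 3 and 5. The library just inside the threshold was RGECO replicate 1 at 0.633%, and the one just outside was WT replicate 3 at 0.566%, so the 2 groups are separated by a narrow margin. The gap was wider within RGECO, from 0.274% to 0.633%, than within WT, from 0.566% to 0.641%. Because these values made the groups, they are given as a description. In WT the split also coincides with the replicate numbers 1 to 3 and 4 to 6, and an effect of anything tied to those numbers cannot be told apart from it.

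**Figure D1:**
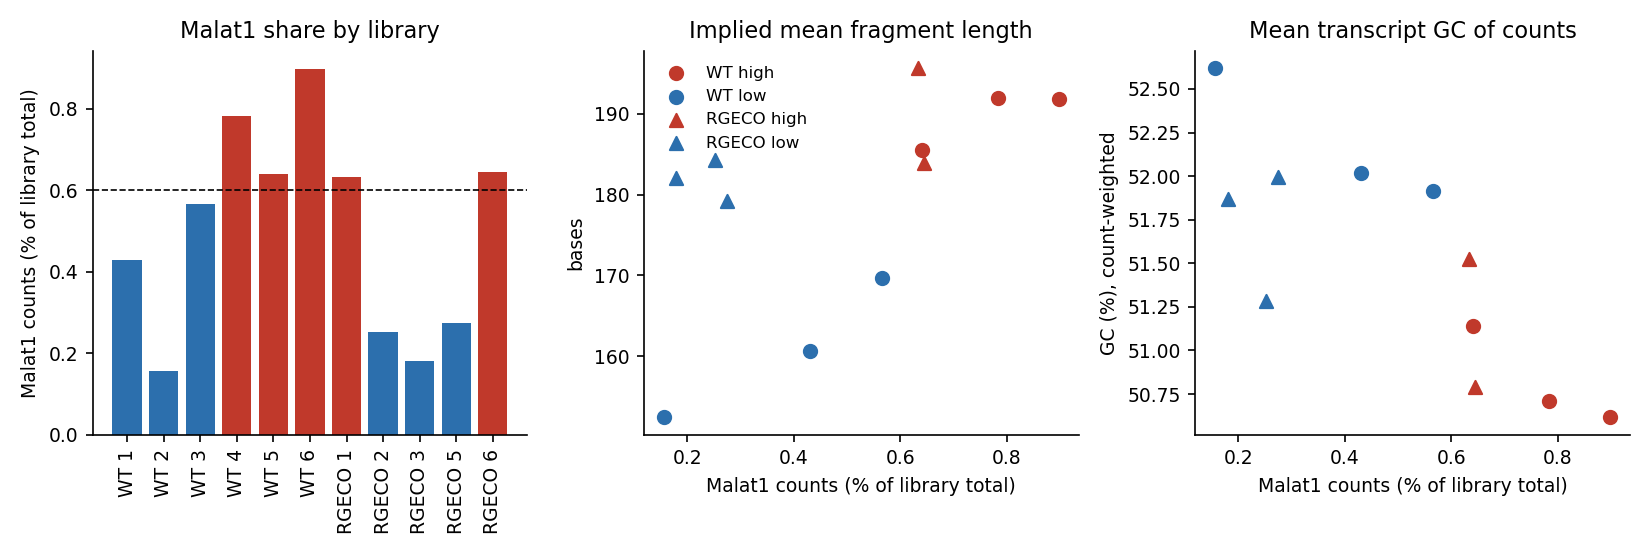
Left, bars give the Malat1 share of counts (%) in each of the 11 libraries, with the 0.6% threshold dashed. The middle and right panels plot the implied mean fragment length (bases) and the count-weighted mean transcript GC (%) of each library against that share; the 3 WT high libraries had longer fragments than the 3 WT low libraries, while in RGECO the groups overlapped.

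The libraries differed in more than Malat1. Mitochondrially encoded genes held 1.68%, 1.16% and 1.59% of the counts in the WT high libraries against 0.754%, 0.204% and 0.530% in the WT low ones. In RGECO the high libraries held 0.509% and 1.33%, and the low ones 0.726%, 0.625% and 0.298%, so the groups overlapped there. The mean within-line difference was 0.675 percentage points (two-sided exact permutation of the split within each line, p = 0.025, adjusted over 6 measures 0.075; the smallest p that 200 assignments allow is 0.005). Genes of the cytosolic ribosomal proteins held a mean of 3.13% ± 0.211 (SD, n = 3) against 3.603% ± 0.430 (n = 3) in WT, and 2.70% ± 0.172 (n = 2) against 3.15% ± 0.174 (n = 3) in RGECO, with an adjusted exact permutation p of 0.075. Neither share passed, and without WT replicate 6 both had an adjusted exact permutation p of 0.21. In WT the ribosomal shares overlapped, at 3.106% in low replicate 3 and 3.114% in high replicate 4. The share held by the 50 most abundant genes (adjusted exact permutation p = 0.14), the TPM share of the longest decile of genes (0.247), the library total (0.546) and how many genes had any count (0.875) also did not pass.

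A further 2 library measures were added after the data were seen and adjusted as a family of their own; in RGECO the groups overlapped on both. The mean GC content of the transcripts, weighted by counts, was 50.8% ± 0.279 (SD, n = 3) in WT high against 52.2% ± 0.379 (n = 3) in WT low libraries, and 51.2% ± 0.518 (n = 2) against 51.7% ± 0.381 (n = 3) in RGECO. Its two-sided exact permutation p was 0.015, and 0.015 after adjustment over both measures; without RGECO replicate 6 the adjusted p was 0.05. The mean fragment length implied by the effective lengths in the deposited tables was 191.9, 185.5 and 191.8 bases in the WT high libraries, against 160.6, 152.4 and 169.7 bases in the WT low libraries. In RGECO it was 195.6 and 183.9 bases in the high libraries, against 184.2, 182.0 and 179.2 bases in the low ones (exact permutation p = 0.01, adjusted 0.015). The WT groups did not overlap, while the RGECO low replicate 2 was slightly above the high replicate 6.

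With line as a covariate, 1285 of 14580 genes were higher in the high-share libraries (8.81% of the genes tested) and 1220 were lower (8.37%), by edgeR's quasi-likelihood test at a Benjamini-Hochberg adjusted p of 0.05, Malat1 not counted. The median log2 fold change over all genes was -0.02, which the TMM scaling holds near 0. Scaled by library totals alone, the calls were 1640 higher and 687 lower, with a median of 0.06. On the deposited TPM, limma on log2(TPM + 1) called 69 higher and 6 lower, 64 of them among the calls above, with a median over all genes of 0.12. High and low libraries did not overlap within WT nor within RGECO for 739 genes that were higher (5.07%) and 736 that were lower (5.05%). The number of calls rested on single libraries: it ran from 793 without WT replicate 6 to 3720 without RGECO replicate 1, with 906 without WT replicate 4, 952 without RGECO replicate 6, 1002 without WT replicate 2, 1308 without WT replicate 1 and 1625 without WT replicate 5.

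Tested alone, WT gave 3801 calls (26.1% of the genes tested) and RGECO, with 2 libraries against 3, gave 8 (0.0549%). The 2 lines share no library, so the WT calls can be read in RGECO. Of 2055 genes higher in WT high libraries, 88.0% were also above 0 in RGECO, with a median log2 fold change of 0.71 in WT and 0.25 in RGECO. Of 1746 genes lower in WT, 86.9% were below 0 in RGECO, with medians of -0.53 and -0.22. Over all genes 68.5% had the same sign in both lines. The test of the line by split interaction called 1 gene of 14580 (0.00686%), the predicted gene Gm11007, by edgeR, with 1182 at an unadjusted p under 0.05, and DESeq2 called 15.

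The called genes differed from the rest in base composition. Transcripts of genes higher in the high-share libraries had a median GC content of 43.2%, against 50.6% over all genes tested and 57.3% for genes lower in them. Among the quintile of genes lowest in GC (31.3% to 45.1%), 33.0% were higher and 0.143% lower, with a median log2 fold change of 0.46. In the quintile highest in GC (56.0% to 75.5%), 0.214% were higher and 28.2% lower, with a median of -0.35. The trend ran through the quintiles between at 0.16, -0.03 and -0.20, and had the same order within WT (0.64 to -0.45) and within RGECO (0.25 to -0.18). Length showed a smaller trend, from -0.11 in the shortest quintile to 0.07 in the longest. Both GC content and length were the median over the annotated transcripts of a gene, whether or not each was expressed. The length can therefore be far from that of the expressed RNA: for Malat1 it was 606 bases, for a gene from 5795690 to 5802672. How far this affects the length trend was not tested.

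**Figure D2:**
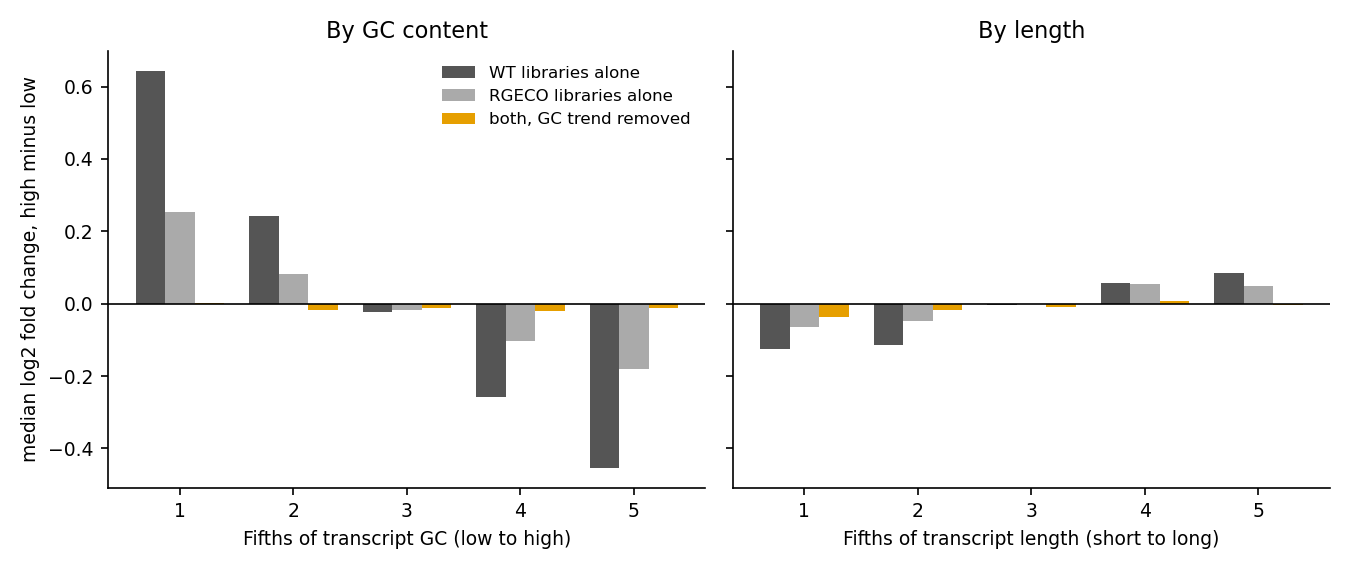
Bars give the median log2 fold change (high minus low libraries) of the genes in each quintile of transcript GC content (left) and transcript length (right), for WT alone, RGECO alone, and both lines after the GC trend was removed within each library. The medians fall from 0.64 to -0.45 over the GC quintiles in WT and from 0.25 to -0.18 in RGECO. In the left panel the bars after removal lie near 0 by construction, because the removed trend was fitted on GC, and are no result.

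The start of the coding sequence is shown for 4 genes with large fold changes, described below, to show this contrast in base composition, 5′ to 3′ from the start codon, with G and C in capitals (GENCODE transcripts, GRCm38). Sh3bgrl and Katnbl1 were higher in the high-share libraries, and Scand1 and Bbc3 were lower.
Sh3bgrl: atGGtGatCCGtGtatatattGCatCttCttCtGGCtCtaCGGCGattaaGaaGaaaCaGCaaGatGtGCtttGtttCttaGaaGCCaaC
Katnbl1: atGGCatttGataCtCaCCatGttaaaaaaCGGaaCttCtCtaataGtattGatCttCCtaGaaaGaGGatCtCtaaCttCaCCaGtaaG
Scand1: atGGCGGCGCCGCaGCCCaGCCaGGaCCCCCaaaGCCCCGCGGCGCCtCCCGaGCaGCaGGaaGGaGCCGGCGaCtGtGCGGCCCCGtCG
Bbc3: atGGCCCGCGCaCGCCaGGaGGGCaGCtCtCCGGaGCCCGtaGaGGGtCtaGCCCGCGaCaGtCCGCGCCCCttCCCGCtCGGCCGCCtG
G and C made up 41.1% of the 90 bases shown for Sh3bgrl and 35.6% for Katnbl1, against 77.8% for Scand1 and 75.6% for Bbc3. Over the whole coding sequence the 4 values were 43.9%, 39.4%, 75.6% and 72.2%. Scand1 and Bbc3 had the highest transcript GC of the 12 lower genes taken by the naming rule. Other genes taken by it differed less, with 51.1% for the higher Zfp397 against 52.7% for Sod3 and 49.7% for Mrpl57, both lower.

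After the smooth GC trend was removed within each library, an alternative added after the data were seen, 96 genes were higher (0.685% of 14023) and 95 lower (0.677%), and 128 of the 191 were among the calls of the first fit. Of the first calls that had a GC value, 2205 of 2474 kept their sign, and their median size fell from 0.51 to 0.19 on the log2 scale. With the implied fragment length as a covariate, also added, edgeR called 0 genes, with 704 at an unadjusted p under 0.05, and with the mitochondrial share as a covariate it called 2. Both covariates differed between the groups in WT. The gene lists below are read against the shares called over all genes, 8.81% higher and 8.37% lower in the count fit and 0.685% and 0.677% with the GC trend removed.

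The naming rule took called genes, higher or lower, in which high and low libraries did not overlap in either line. Absence of overlap in them is a condition of the choice and no result. It held for 5.07% of all genes tested in the higher direction and 5.05% in the lower. Of the 12 higher genes taken by the naming rule, Hnrnph1, Ptbp2 and Thoc2 act on RNA. Hnrnph1, a splicing regulator that binds G-rich runs (chromosome 11 from 50376990 to 50386528), had 58.7, 39.4 and 62.1 CPM (TMM-scaled counts per 1000000) in the WT high libraries and 25.6, 15.1 and 27.7 CPM in the WT low ones. In RGECO it had 37.2 and 41.8 CPM against 20.8, 19.4 and 18.9 CPM. No low library reached a high one of the same line, and the log2 fold change was 1.13 ± 0.16 (SE; edgeR adjusted p = 0.00667), or 0.71 with the GC trend removed (adjusted p = 0.00658). Ptbp2, the neural paralogue of the splicing repressor Ptbp1 (chromosome 3 from 119718742 to 119784466), had 23.7, 22.1 and 25.4 CPM against 9.76, 7.56 and 10.5 CPM in WT, and 17.5 and 28.2 CPM against 13.9, 13.2 and 10.1 CPM in RGECO. Its log2 fold change was 1.14 ± 0.17 (edgeR adjusted p = 0.00667), and 0.72 with the GC trend removed (adjusted p = 0.0129). Thoc2, a subunit of the complex that couples transcription to messenger RNA export, was higher by 1.05 ± 0.23, and by 0.25 with the GC trend removed (adjusted p = 0.356), where it was not called.

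Sh3bgrl, a small protein of the thioredoxin-fold family on chromosome X, showed the largest fold of these 12 higher genes: 92.3, 75.1 and 97.8 CPM against 36.2, 13.1 and 27.9 CPM in WT. In RGECO its high libraries had 72.1 and 101.2 CPM, and the low ones 69.1, 38.0 and 34.9 CPM, so RGECO replicate 2 came close to the high libraries. The log2 fold change was 1.37 ± 0.31 (edgeR adjusted p = 0.0183), and 0.84 with the GC trend removed (adjusted p = 0.0215). Selenok, an endoplasmic reticulum selenoprotein, was higher by 1.10 ± 0.19 and by 0.90 with the trend removed (adjusted p = 0.0124). The other higher genes named by the rule were G2e3 (1.13), a ubiquitin ligase, Lysmd3 (1.10), Fsd1l (1.07), Katnbl1 (1.16) and the zinc-finger gene Zfp397 (1.05); of these Zfp397 alone was still called with the trend removed. They were drawn from 427 genes that were called, abundant enough and free of overlap in both lines, and the lower genes from 496.

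Genes at the lower end included enzymes, signalling factors and translation genes. Sod3, the extracellular superoxide dismutase (chromosome 5 from 52363791 to 52371418), had 38.7, 49.4 and 47.2 CPM in WT high against 89.9, 83.3 and 76.0 CPM in WT low libraries, and 22.3 and 16.4 CPM against 33.9, 24.6 and 40.2 CPM in RGECO. The groups did not overlap in either line, as the naming rule required. The log2 fold change was -0.83 ± 0.13 (edgeR adjusted p = 0.00667), and it was -0.72 with the GC trend removed (adjusted p = 0.00748), close to the first value. Scand1 (-1.06 ± 0.22), Bbc3, which encodes the pro-apoptotic protein PUMA (-0.94 ± 0.18), and Cebpb, a leucine-zipper transcription factor (-0.80 ± 0.15), have GC contents of 68.4%, 68.0% and 67.2%. With the trend removed they stood at -0.49, -0.40 and -0.27 and were not called (adjusted p = 0.14, 0.151 and 0.254). Ppargc1b, a coactivator of mitochondrial genes, was lower by 0.76 on the log2 scale and Snx15, a sorting nexin, by 0.83; neither was called with the trend removed. Zfp553 (-0.77) and Ndufb10 (-0.79) rested partly on a high RGECO replicate 5.

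**Figure D3:**
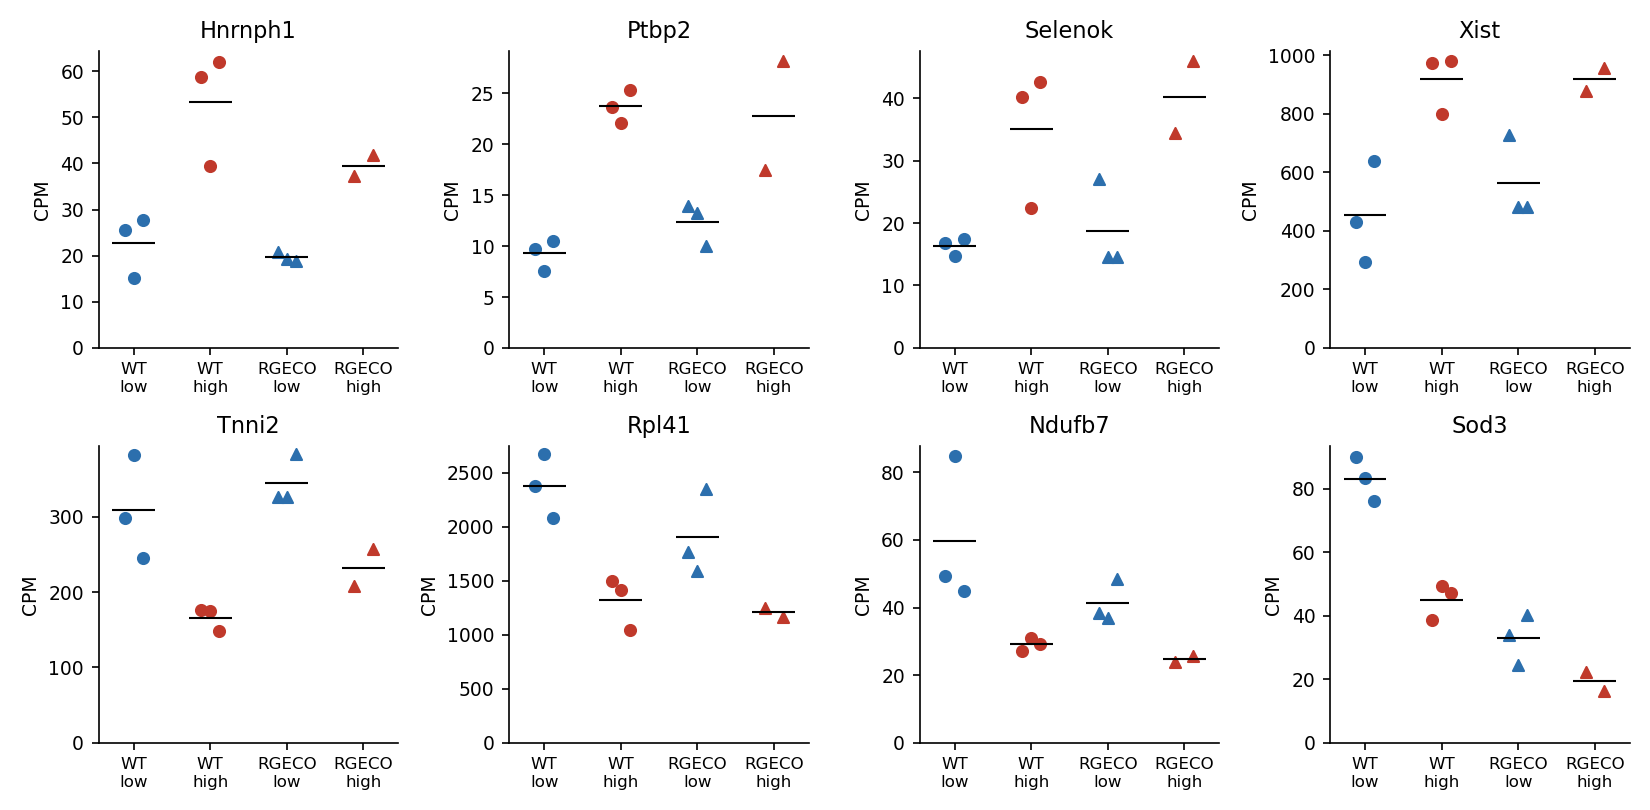
Points give TMM-scaled counts per 1000000 (CPM) of 8 genes in each library, by line and Malat1 group, with the mean as a bar. In the 8 panels no low library overlapped a high library of the same line: Hnrnph1, Ptbp2, Selenok and Xist were higher in the high-share libraries and Tnni2, Rpl41, Ndufb7 and Sod3 lower. For all but Xist and Tnni2 the naming rule required this. Of all genes tested, 5.07% were higher and 5.05% lower without overlap.

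Long noncoding RNAs were read as a list, since Malat1 is one of them. The list was named nuclear, but where its members reside in the cell was not measured, so its counts are no result about RNA kept in the nucleus. Of 26 listed, 19 could be tested, 5 were higher and 0 lower, against 8.81% higher over all genes, with a median log2 fold change of 0.45, and of 0.28 with the GC trend removed, where 0 were called. The list gave 2 higher without any 1 of WT replicates 1, 2, 4, 5 and 6 or RGECO replicates 5 and 6. Without RGECO replicate 3 it gave 3 higher and 1 lower, and without RGECO replicate 2 it gave 6 and 1. Of the 19, 14 were above 0 and 5 below. The most abundant tested member, Rn7sk, went the other way from Malat1, at -0.57 ± 0.22 (-0.60 in WT, -0.51 in RGECO). It was not called (edgeR adjusted p = 0.1), and its groups overlapped in both lines. Xist, the RNA that coats the inactive X chromosome, had 974, 799 and 981 CPM against 431, 295 and 640 CPM in WT, and 878 and 957 CPM against 728, 481 and 480 CPM in RGECO. The groups did not overlap in either line (log2 fold change 0.88 ± 0.18, edgeR adjusted p = 0.0111; 0.40 with the trend removed, adjusted p = 0.0528). Oip5os1, also known as cyrano, was higher by 0.83 ± 0.14, Dleu2, a host of microRNAs, by 1.32 ± 0.42, and Kcnq1ot1, the imprinted antisense RNA, by 1.00 ± 0.31. On log2(TPM + 1) Kcnq1ot1 stood at -0.14, the opposite direction. Mir17hg, the host of the miR-17 cluster, was called too, but 3 RGECO low libraries held 0 counts, so its fitted fold is not given; its highest level was 1.5 CPM. Strand was not stated, so reads of Kcnq1ot1 and of Kcnq1 cannot be told apart.

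Neat1 did not pass the test. It had 2091, 1661 and 2143 CPM in WT high libraries and 1135, 334 and 2147 CPM in WT low ones, so WT replicate 3 was as high as any high library. In RGECO it had 1504 and 1044 CPM against 263, 213 and 357 CPM, with no overlap. The pooled log2 fold change was 1.38 ± 0.49 (edgeR adjusted p = 0.0873), made of 0.73 in WT and 2.20 in RGECO, where it was called (adjusted p = 0.00132). The difference between the lines was tested by the interaction and was not called. Outside the nuclear list, Lincmd1, a muscle noncoding RNA that hosts microRNAs, was higher by 1.05 ± 0.19, and Mir100hg, the host of the miR-100 cluster, by 1.22 ± 0.28. Mir100hg had 27.00 and 26.26 CPM in the RGECO high libraries against 7.59, 8.18 and 4.76 CPM in the low ones, and 19.6, 22.4 and 26.8 CPM against 17.8, 6.90 and 18.9 CPM in WT. It was not called in WT alone (0.68, edgeR adjusted p = 0.157), and neither Mir100hg nor Lincmd1 was called with the GC trend removed (adjusted p = 0.176 and 0.0573).

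Genes of the nuclear speckle and the SR splicing factors followed. Of 36 tested, 19 were higher and 0 lower, against 8.81% higher over all genes, and their median log2 fold change was 0.42, with 0.48 in WT and 0.37 in RGECO. Their median GC content was 45.2%, and with the GC trend removed the median was 0.09 and 1 was called. Leaving out each library in turn gave 12 (without WT replicate 6) to 25 (without RGECO replicate 1) higher. Prpf4b, a kinase of the spliceosome, had 32.3, 26.4 and 38.3 CPM against 19.6, 15.8 and 17.0 CPM in WT, and was higher by 0.85 ± 0.16 (edgeR adjusted p = 0.00683). Srsf10 and Tra2a, splicing factors with arginine and serine-rich domains, were higher by 0.72 ± 0.15 and 0.58 ± 0.12, and none of the 3 was called with the trend removed (0.41, 0.22 and 0.22). Of 15 paraspeckle genes 4 were higher and 0 lower, among them Hnrnpu (0.72) and Sfpq (0.52), with a median of 0.31, or -0.05 with the trend removed, where 1 was called. Without single libraries, 2 (without RGECO replicate 6) to 7 (without RGECO replicate 1 or 2) were higher. Of 19 genes of nonsense-mediated decay and the RNA exosome, 3 were higher and 1 lower: the helicase Upf1 was lower by 0.49 on the log2 scale, while the exonuclease Xrn1 was higher by 0.59. In that list 0 were higher without RGECO replicate 6 or any 1 of WT replicates 1, 2, 4 and 6, 5 without RGECO replicate 1 or 2, and 0 were called with the trend removed.

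**Figure D4:**
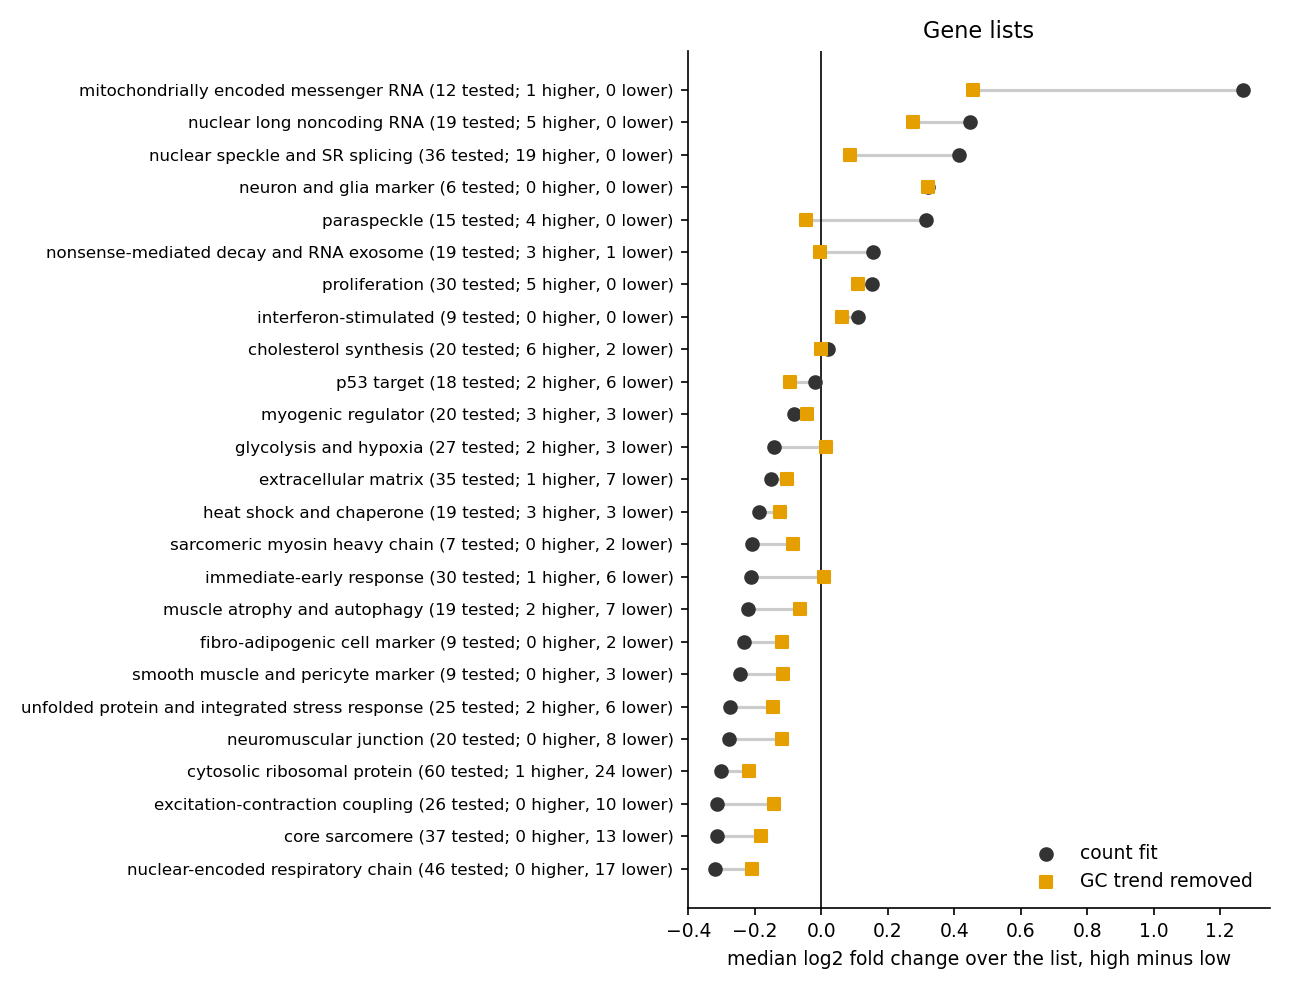
Each row is a gene list with at least 5 tested members; circles give its median log2 fold change (high minus low) in the count fit and squares after the GC trend was removed within each library, with the members called higher and lower in brackets. The mitochondrially encoded genes moved from 1.27 to 0.46 and the speckle and SR genes from 0.42 to 0.09, while the ribosomal protein genes moved from -0.30 to -0.22.

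Mitochondrially encoded messenger RNAs had the largest median of any list with at least 5 tested members, 1.27 over 12 genes, all above 0, yet 1 was called. That was mt-Nd2, a subunit of respiratory complex I, with 585, 283 and 483 CPM against 131, 32.3 and 101 CPM in WT. In RGECO it had 404 CPM in replicate 6 and 99.2 CPM in replicate 1, against 121, 89.1 and 38.8 CPM in the low libraries, so replicate 1 lay among the low ones (2.02 ± 0.54, edgeR adjusted p = 0.0377). Without RGECO replicate 1, 7 of the 12 were called; 1 was called without RGECO replicate 2 or WT replicate 2, and 0 without any other library. Their median GC content was 37.4%, and with the GC trend removed the median was 0.46 and 0 were called.

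Nuclear genes encode the remaining subunits of the respiratory chain. Of 46 tested, 17 were lower and 0 higher, against 8.37% lower over all genes, with a median of -0.32. With the GC trend removed the median was -0.21 and 5 were lower. The lower count was 9 without WT replicate 4 or 6, 10 without WT replicate 1 or 2, and 12 to 18 without any other library. Ndufb7, a subunit of complex I, had 27.1, 31.0 and 29.4 CPM against 49.4, 84.9 and 45.0 CPM in WT, and 23.8 and 25.8 CPM against 38.5, 37.0 and 48.3 CPM in RGECO (-0.90 ± 0.15, edgeR adjusted p = 0.00667; -0.60 with the trend removed, adjusted p = 0.0246). Ndufs7 and Cox4i1, of complexes I and IV, were lower by 0.71 and 0.49 on the log2 scale.

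Of 60 cytosolic ribosomal protein genes, 24 were lower and 1 higher, against 8.37% and 8.81% over all genes, with a median of -0.30. With the GC trend removed the median was -0.22 and 5 were lower, against 0.677% over all genes. Without WT replicate 6, 9 were lower, 12 without WT replicate 2 or 4, 13 without WT replicate 1, and 17 to 30 without any other library. Rpl41, which encodes the smallest protein of the large subunit, had 1495, 1419 and 1043 CPM against 2373, 2670 and 2080 CPM in WT, and 1249 and 1169 CPM against 1767, 1586 and 2350 CPM in RGECO, with no overlap in either line, as the naming rule required. It was lower by 0.76 on the log2 scale, and by 0.55 with the trend removed (adjusted p = 0.014). Rps18 was lower by 0.54 and its processed copy Rps18-ps6 by 0.88; the reads of such copies are near-identical, so their values are uncertain. On the TPM scale, which corrects for effective length within each library, the median of the ribosomal list was -0.05 and 0 were called. That of the respiratory list was -0.08 with 1 lower. Over all 14580 genes the median on that scale was 0.12 and 6 were called lower, so both lists lay below it. The mitochondrial ribosome gene Mrpl57 was lower by 0.76 in the counts and by 0.79 with the GC trend removed (adjusted p = 0.00576).

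Of 37 core sarcomere genes, 13 were lower and 0 higher, against 8.37% lower over all genes, and the others did not pass. The list had a median of -0.31, or -0.18 with the GC trend removed, where 3 were lower. It was 8 lower without WT replicate 2, 4 or 6, and 9 to 15 without any other library. Tnni2, the fast skeletal inhibitory troponin (chromosome 7 from 142441808 to 142444410), had 175.5, 174.7 and 148.3 CPM against 298.0, 382.1 and 244.6 CPM in WT, and 207.4 and 257.2 CPM against 325.4, 326.2 and 382.5 CPM in RGECO. The log2 fold change was -0.75 ± 0.12 (edgeR adjusted p = 0.00667), and -0.49 with the trend removed (adjusted p = 0.0186). Tnni1, its slow counterpart, was lower by 0.58 and Klhl40, a stabiliser of thin filament proteins, by 0.63. Of 7 sarcomeric myosin heavy chains 2 were lower, perinatal Myh8 and slow Myh7. Myh8 was at -0.42 ± 0.10, or -0.60 with the trend removed (edgeR adjusted p = 0.00572). Myh7 was at -0.32, and at 0.06 on log2(TPM + 1), where the median over all genes was 0.12. Of the 7, 0 were lower without RGECO replicate 6 or WT replicate 6, 1 without any 1 of WT replicates 1, 2 and 5, and 3 without RGECO replicate 2 or WT replicate 3. Myh8 has a GC content of 47.1%. The markers Acta1 and Ckm were lower by 0.39 and 0.43 on the log2 scale and were at -0.07 and -0.13 with the trend removed. In TPM the Ckm groups overlapped in both lines, in WT at 444.6 to 520.5 (high) and 454.0 to 504.5 (low). The other muscle markers, Ttn (0.01), Tnnt3 (-0.48), Myog (-0.35) and Des (-0.35), were not called.

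Of 26 genes of excitation-contraction coupling, 10 were lower and 0 higher, against 8.37% lower over all genes (median -0.31; -0.14 with the GC trend removed, 1 lower), and of 20 genes of the neuromuscular junction 8 were lower and 0 higher (median -0.28; -0.12, 0 called). Most members of both lists did not pass. The counts were 5 and 1 without WT replicate 6, 5 and 3 without WT replicate 2, 6 and 2 without WT replicate 4, and 7 to 12 and 3 to 10 without any other library. Ryr1, the calcium release channel of the sarcoplasmic reticulum, had 730, 639 and 630 CPM against 761, 1129 and 1053 CPM in WT, and 776 and 752 CPM against 1033, 1158 and 1088 CPM in RGECO (-0.54 ± 0.10, edgeR adjusted p = 0.00716; -0.29 with the trend removed, adjusted p = 0.112). Jph2 (-0.52) and the calcium pump gene Atp2a1 (-0.42) were lower, as were Rapsn (-0.46), which anchors acetylcholine receptors, and the fetal receptor subunit Chrng (-0.42).

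Of 20 myogenic regulators, 3 were higher and 3 lower, against 8.81% and 8.37% over all genes. Without single libraries 2 to 4 were higher and 1 to 7 lower, 7 of them without RGECO replicate 1. Mef2c and Mef2a, transcription factors of muscle differentiation, were higher by 0.51 ± 0.09 and 0.43 ± 0.09, while the fusion peptide gene Mymx was lower by 0.49 on the log2 scale; GC contents were 45.3%, 44.4% and 60.8%. None of the 3 was called with the GC trend removed, and Mef2c stood at -0.05 on log2(TPM + 1). In the list of muscle atrophy and autophagy, 2 of 19 were higher and 7 lower, against the same 8.81% and 8.37%. The ubiquitin ligases Fbxo30 and Trim63 stood at 0.85 and -0.46. Trim63 was still lower with the trend removed (-0.37, edgeR adjusted p = 0.0342), and no other gene of that list was called then. The lower count of the list was 2 without WT replicate 6, 3 without WT replicate 1, 2 or 4 or RGECO replicate 6, and 4 to 8 without any other library. Of 35 extracellular matrix genes 1 was higher and 7 lower, against 8.81% and 8.37% over all genes, including perlecan, Hspg2 (-0.56), Col6a2 (-0.58) and the collagen chaperone Serpinh1 (-0.49). The matrix list had a median of -0.15, or -0.10 with the GC trend removed, where 2 were lower. Its lower count was 3 without RGECO replicate 6 or WT replicate 6, 4 without WT replicate 2 or 4, and 5 to 9 without any other library.

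Stress and growth lists had calls in both directions or few calls, read against 8.81% higher and 8.37% lower over all genes. Of 30 immediate-early genes 6 were lower and 1 higher, with Junb at -0.75, Ier2 at -0.74 and Fos at -0.45, and a list median of -0.34 in WT and 0.04 in RGECO. Of 25 genes of the unfolded protein and integrated stress responses 6 were lower, such as Phgdh (-0.49), and 2 higher, such as Dnajb9 (0.91). Heat shock genes were split 3 and 3 of 19, with Hsp90aa1 at 0.58 and Cryab at -0.52. Hsp90aa1 stood at -0.00684 on log2(TPM + 1). Glycolysis and hypoxia genes were split 2 and 3 of 27, near the background. Bnip3, a mitophagy receptor, was higher by 0.49 and by 0.51 with the GC trend removed (adjusted p = 0.0467). Cholesterol synthesis had 6 of 20 higher and 2 lower, with Idi1 at 0.59 and Msmo1 at 0.51. Of 18 p53 targets 2 were higher and 6 lower. Of 30 proliferation genes 5 were higher and 0 lower (median 0.15), among them the mitotic kinesin Kif11 at 0.95 ± 0.25, with 20.2, 13.3 and 22.1 CPM against 7.43, 6.01 and 9.47 CPM in WT and with overlap in RGECO. Without WT replicate 1, 2 or 6 or RGECO replicate 6, 0 proliferation genes were called higher, 1 without WT replicate 4 or 5, 2 without RGECO replicate 3 or 5, and 8 without RGECO replicate 1 or 2. The counts of the other lists in this paragraph also moved by a few genes when single libraries were left out, down to 2 lower immediate-early genes without WT replicate 6 and 1 lower gene of the stress responses without RGECO replicate 6. With the GC trend removed, 0 genes were called in the immediate-early, heat shock, cholesterol and p53 lists, 1 was higher in the stress response list and in the glycolysis list, and 1 proliferation gene was lower and 0 higher. The list medians were then 0.01 for immediate-early, -0.12 for heat shock, -0.15 for stress response, 0.01 for glycolysis, -0.0012 for cholesterol, -0.09 for p53 and 0.11 for proliferation genes.

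Markers of other cell types gave 6 calls, all lower. The counts are read against 8.37% lower over all genes. Of 9 tested fibro-adipogenic markers 2 were lower (Pdgfrb, Gsn), of 9 smooth muscle and pericyte markers 3 (Notch3, Cspg4, Lmod1), and of 4 endothelial markers 1, Egfl7, at 0.42 to 4.67 CPM. All 6 calls were lost when any 1 of WT replicates 2, 4, 5 and 6 or of RGECO replicates 5 and 6 was left out. Below 0 were 5 of 9 fibro-adipogenic, 8 of 9 smooth muscle and pericyte and 2 of 4 endothelial markers, with list medians of -0.232, -0.245 and -0.606. With the GC trend removed the medians were -0.119, -0.115 and -0.416, and 0 markers of these lists were called. None of the 2 immune, 6 neuron and glia, or 9 interferon-stimulated genes was called. The summed fibro-adipogenic level ranged from 751 to 1060 TPM in WT high and 648 to 921 TPM in WT low libraries. In RGECO it ranged from 1345 to 1836 TPM in high and 1271 to 1640 TPM in low libraries. The smooth muscle level ran from 1341 to 1545 and 1396 to 1691 TPM in WT, and from 929 to 1606 and 1063 to 1377 TPM in RGECO. Both levels overlapped between the groups in each line. In bulk RNA, fewer cells of a type and less RNA per cell cannot be told apart. The part of base composition, fragment length, mitochondrial share and the replicate numbers in the gene differences was not tested beyond the values given.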

How the data were processed

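Poly(A)-selected RNA of 12 libraries was amplified over 14 PCR cycles and read as 50-base pairs, as the labels' protocols say. The authors deposited estimated counts per gene, not normalised, and TPM values, scaled within each library. The submitters' processing notes name Salmon, STAR, bedtools 2.25.0 and BWA 0.7.12-r1039, with GRCm39, mm10 and hg19 as builds. What each was used for, which annotation was counted and whether strand was used is not given in the sources. Coordinates, GC content and transcripts came from GENCODE for GRCm38, matched by gene identifier; 14023 of the 14580 tested genes had a GC value.

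Library totals were 5881622 to 11926220 and the common biological coefficient of variation was 22.7%. Counts were rounded, filtered on the 4 line-by-split groups, scaled by TMM and tested with edgeR 4.0.16 (robust quasi-likelihood, line as covariate, Benjamini-Hochberg threshold 0.05) in R 4.3.3. Library measures were tested by exact permutation within line. Alternatives used DESeq2 1.42.0, limma 3.58.1 on log2(TPM + 1), other scalings and filters, and leaving out each library. Choices added after the data were seen removed a loess GC trend (span 0.3), with or without length, within each library, or used the implied fragment length, which was solved from count to TPM ratios of single-transcript genes. Of the fits, the main edgeR fit alone was tested on simulated counts, drawn with no line effect and no GC or fragment length trend. It recovered 65% of 2-fold and 83% of 4-fold changes.

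The 12 genes named in each direction had the most extreme log2 fold changes among called genes with mean log2 CPM not under 4 and no overlap in either line, without predicted and mitochondrial genes; each of the 27 lists gave its 3 smallest p-values, the nuclear noncoding list all members. The members and lists were chosen with earlier results of these data known. No 2 libraries of a group were duplicates.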

Additional observations from a re-analysis of the deposited data

Results flagged for a closer look

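Over 66 groups of 5 or 6 libraries, 5 had 1 library far from the others, and chance flags about 1 in 20. WT replicate 5 held 11740000 counts (rounded), against 9370000 to 9971000 in the other WT libraries. In RGECO replicate 6, Katnbl1 had 27.67 CPM against 13.58 to 16.39 CPM in the other RGECO libraries, and Fsd1l had 48.12 CPM against 19.37 to 25.79 CPM. In RGECO replicate 5, Ndufb10 had 49.73 CPM against 16.37 to 19.03 CPM, and Zfp553 had 41.09 CPM against 14.13 to 20.63 CPM. Gm11007 differed between the lines in its response to the split (fitted interaction -9.946 on the log2 scale, edgeR adjusted p = 0.00403). It had 0 counts in both RGECO high libraries, against 67.8, 34.5 and 41.6 estimated counts in the RGECO low ones, and 38.7 to 53.2 against 10.2 to 26.3 in WT, so the fitted value depends on the prior count and is no size.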

How the results depend on the processing

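Every alternative named here was set against 2505 calls, 1285 higher and 1220 lower. DESeq2 (3291), RLE scaling (2495), the Malat1 share as a continuous covariate (2599), the library total as a covariate (2076), no filter (2908) and a mean log2 CPM of at least 1 (2706) stayed within 1.5 times. Removing the GC trend gave 191 (96 higher, 95 lower) and removing GC and length trends 204 (100 and 104). The implied fragment length as covariate gave 0 (0 and 0) and the mitochondrial share 2 (1 and 1). On log2(TPM + 1) limma called 75 (69 and 6), on log2(TPM + 0.1) 1 (0 and 1), and with no filter 0 (0 and 0; 3401 at an unadjusted p under 0.05); the median of all genes there was 0.12, 0.15 and 0.04. WT alone gave 3801 (2055 higher) and RGECO alone 8 (3 and 5), library totals alone 687 lower, and no line covariate 865 (472 and 393). Without single libraries the calls ran from 793 to 3720, higher from 501 to 1983 and lower from 292 to 1740, and the interaction calls from 0 to 3; DESeq2 called 15 for the interaction. With the replicate number as a block, 2 genes were called (0 higher, 2 lower); same-numbered libraries correlated at -0.106 to 0.203, and 1 of 5 correlated best with its own number, so the numbers were not taken as a pairing. Signs turned for Kcnq1ot1 on TPM (-0.35 with 0.1 added, -0.14 with 1, filtered or not), Cyp51 (-0.135; -0.132), Mef2c (-0.049; -0.0488), Hsp90aa1 (-0.00683; -0.00684) and Myh7 (0.0602; 0.0601). They also turned for Upf2 (-0.00503) and Ccng1 (-0.256, and -0.25 with length) with the GC trend removed, Idi1 with GC and length removed (-0.00681) and Kif11 with the mitochondrial covariate (-0.0532). All of these were called in the count fit. Some named genes that were not called also changed sign with the GC trend removed, such as Snhg1 (0.47 to -0.05) and Gas5 (0.38 to -0.09). The cause of these changes was not tested.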

Other observations

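Epm2a, which encodes the glycogen phosphatase laforin and has a GC content of 59.98%, was higher by 0.54 in the counts and by 0.90 with the trend removed (edgeR adjusted p = 0.00072), with 90.3 and 69.8 CPM in the RGECO high libraries against 46.2, 43.2 and 47.8 CPM in the low ones. In WT it had 61.9, 57.2 and 55.6 CPM in the high libraries and 56.6, 43.2 and 39.9 CPM in the low ones, so the groups overlapped. Mindy2, a deubiquitinase, was higher by 0.77 and by 0.84 (adjusted p = 0.0243). The replication-dependent histone genes H4c4 and H4c16 were lower by 0.70 and 0.76 on the log2 scale in the counts, and by 0.80 and 1.15 with the trend removed (adjusted p = 0.0344 and 0.0101); near-identical copies of histone H4 genes make these values uncertain. Abra, an actin-binding regulator of striated muscle, and Tceal9 were not called in the counts (-0.36 and -0.13) and were called with the trend removed (-0.87 and -0.79, adjusted p = 0.0342 and 0.0246). These genes were picked as those with the most extreme values after the trend was removed.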
